A study of Oryctolagus cuniculus with 9 samples.

Results

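The genes described here encode the transforming growth factor beta (TGF-beta) and bone morphogenetic protein (BMP) signalling system, measured in urethral tissue of the rabbit. They were named by symbol, 41 in all, and 39 of them were rows among the 28788 rows of the deposited count table. PMEPA1 had no row under its symbol, and BMP7 had a row only under its RefSeq gene ID, so it is given separately. The 39 were 9 ligands, 1 latency protein, 9 receptors, 6 signalling SMADs, 4 inhibitors that act inside the cell, 5 secreted antagonists or follistatin-type proteins and 5 target genes. The study tested a stent made of layered hydrogels as a way to repair the urethra. Polyadenylated RNA was sequenced in 9 libraries, with 3 libraries for each of S6, S7 and S9, named by the code and number in their titles (S6_2, S6_3 and S6_4, S7_2, S7_3 and S7_4, and S9_1, S9_2 and S9_4). The sources used here do not give the strain, treatment, time, age or sex behind each code, name no control and do not say whether libraries came from separate animals, so groups are compared by code and p-values measure only the spread between these libraries.

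In this system secreted dimeric ligands bring together a type I and a type II receptor, and the type I receptor then phosphorylates SMAD proteins that enter the nucleus with SMAD4. TGF-beta and activin ligands act mainly through SMAD2 and SMAD3, and BMP ligands through SMAD1, SMAD5 and SMAD9. Secreted antagonists hold ligands away from receptors, while SMAD6, SMAD7, SKI and SKIL dampen the signal inside the cell. In wounded tissue TGF-beta is best known for driving fibroblasts to deposit matrix, and BMP signalling for inducing the ID genes, whose products block basic helix-loop-helix transcription factors. The pathway works largely through protein activation, which transcript levels do not measure.

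Libraries held between 35127085 and 36832773 counts, so depth was nearly even, and a member had between 9 and 69338 counts in a library. All 39 passed the filter on low counts. In S6_4, S7_3 and S9_4, 1 library of each group, the mitochondrially encoded ATP6 lay between 21.5 and 25.9 CPM (read counts scaled to library size, with TMM factors), against 1946 to 3258 CPM in the other 6. Smooth muscle, epithelial, fibroblast and endothelial markers were detected in every library, which matches a urethral wall. The summed level of 8 smooth muscle markers was 3180, 1882 and 1797 CPM in S6, 9937, 2803 and 4819 CPM in S7 and 9122, 11870 and 6115 CPM in S9, in the order of the libraries above. It was thus higher in each S9 library than in each S6 library, and 7 of the 8 markers were called higher in S9. The summed level of 5 neutrophil markers went the other way, at 8306 to 15738 CPM in S6, 2912 to 6520 CPM in S7 and 434 to 758 CPM in S9. Fibroblast markers (6 genes) lay at 19549 to 32613 CPM in S6, 33647 to 75575 CPM in S7, where S7_3 was highest, and 27060 to 40017 CPM in S9. Between S9 and S6, 5 of 5 neutrophil and 4 of 7 macrophage markers were called lower by edgeR. So were 4 of 5 T cell and 2 of 4 B cell markers, against 6.34% of all genes. Called higher were 1 of 4 Schwann cell, 1 of 6 fibroblast and 1 of 6 endothelial markers, against 6.02% of all genes. The same held for 1 of 2 tested skeletal muscle markers, and no epithelial or adipocyte marker was called. The summed macrophage markers were at 556 to 1450 CPM in S6 and 209 to 394 CPM in S9, and the Schwann cell ones at 29.3 to 145 and 186 to 283 CPM. Among the markers with a row, only MYH1 of skeletal muscle was at 0 in all libraries. The part of these shifts in the results below was not tested, and in bulk tissue fewer cells of a type and less RNA per cell cannot be told apart.

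Per length of transcript, the most abundant member was FSTL1, a secreted glycoprotein with a follistatin-like domain, at 215 ± 53.4 FPKM in S6, 471 ± 32.9 in S7 and 427 ± 89.6 in S9 (SD, n = 3; read counts divided by gene length and library total). ID3 and ID1 came next, at averages over the 9 libraries of 186 and 116 FPKM, followed by the type II TGF-beta receptor TGFBR2 at 93.4 FPKM and the matrix protein TGFBI at 88.5 FPKM. Among the ligands BMP4 (50.4 FPKM) and TGFB3 (42.2 FPKM) exceeded TGFB1 (18.7 FPKM), BMP2 (6.70 FPKM), BMP6 (4.77 FPKM) and TGFB2 (4.21 FPKM). Of the summed FPKM of the 3 TGF-beta ligands, TGFB3 took 55.2% to 76.5% in each library, TGFB1 18.9% to 37.9% and TGFB2 2.49% to 11.2%. BMP4 took 66.0% to 86.7% of the summed FPKM of BMP2, BMP4, BMP5 and BMP6. At the low end stood the BMP antagonist NOG (0.321 FPKM), the type I receptor BMPR1B (0.412 FPKM) and the activin subunit INHBA (1.21 FPKM).

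**Figure D1:**
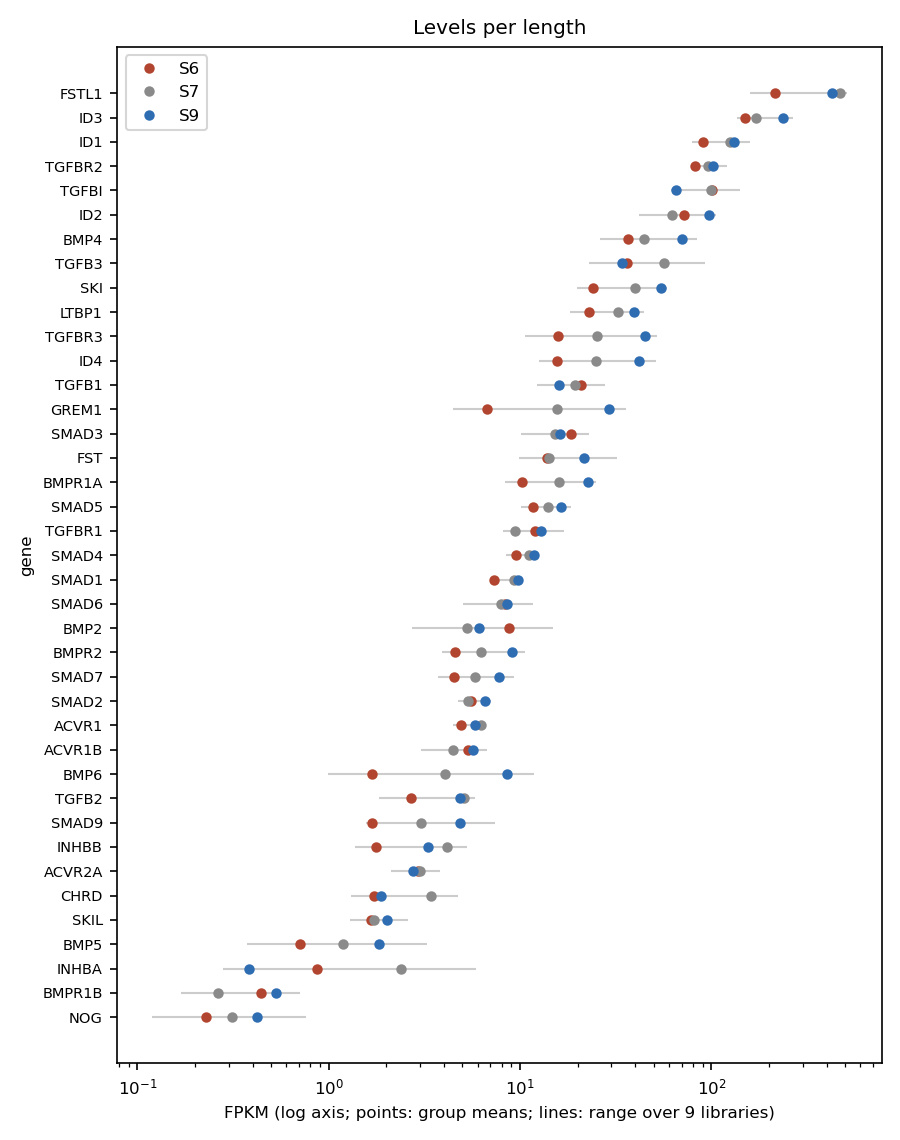
Level per length of each of the 39 members, in FPKM on a log axis, ordered by the mean over 9 libraries. Points are the means of S6, S7 and S9 (n = 3) and lines span all libraries. FSTL1, ID3 and ID1 lead the order and NOG closes it at 0.321 FPKM.

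S9 against S6 gave the most calls, and all 7 members called between them by edgeR were higher in S9. They were the BMP receptors BMPR1A and BMPR2, the BMP-activated SMAD9, the nuclear repressor SKI, the BMP antagonist GREM1, FSTL1 and the target ID4, with fitted folds from 1.91 to 4.15. By edgeR no ligand of either branch was called, no TGF-beta receptor and neither SMAD2 nor SMAD3. On the BMP side BMPR1B, ACVR1, SMAD1 and SMAD5 were not called either. DESeq2 and limma-voom both also called TGFB2, the co-receptor TGFBR3, BMP4, BMP6, SMAD5 and ID3 higher. By edgeR's quasi-likelihood test, 7 of 39 members (17.9%) were called higher at an adjusted p below 0.05, against 6.02% of the 17102 genes tested, and 0 were called lower, against 6.34%. An unadjusted p below 0.05 was found for 18, all higher in S9, against 31.2% of all genes in either direction. A positive log2 fold change was found for 31 of 39, against 49.3% of all genes, and the median was 0.44, against -0.01 over all genes. With a length correction, 26 of the 39 were positive, and the median was 0.55, against 0.03 over all genes. The libraries of S9 lay wholly above those of S6 in 18 members, against 18.6% of all genes, and wholly below in 1, against 17.0%. The calls lay between adjusted p = 0.0195 and 0.0486 by edgeR. Their count was 0 without S6_4, S9_1 or S9_2, 3 without S6_3 and 4 without S7_4. Calls over all genes fell too, to 0.51%, 0%, 0.02%, 5.85% and 6.81%, in that order. When only the 6 libraries with more mitochondrial reads were fitted, 0 members and 0.04% of all genes were called. The log2 fold changes of the 7 were 0.90 to 2.05 there. With the library number as a block in the fit, 0 members and 0.09% of all genes were called. With all 9 libraries and no block, DESeq2 called 13 members and limma-voom 15, all higher. Those tools called more of all genes too, 24.2% by DESeq2 (12% higher) and 23.7% by limma-voom (12.2% higher), against 12.4% by edgeR.

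**Figure D2:**
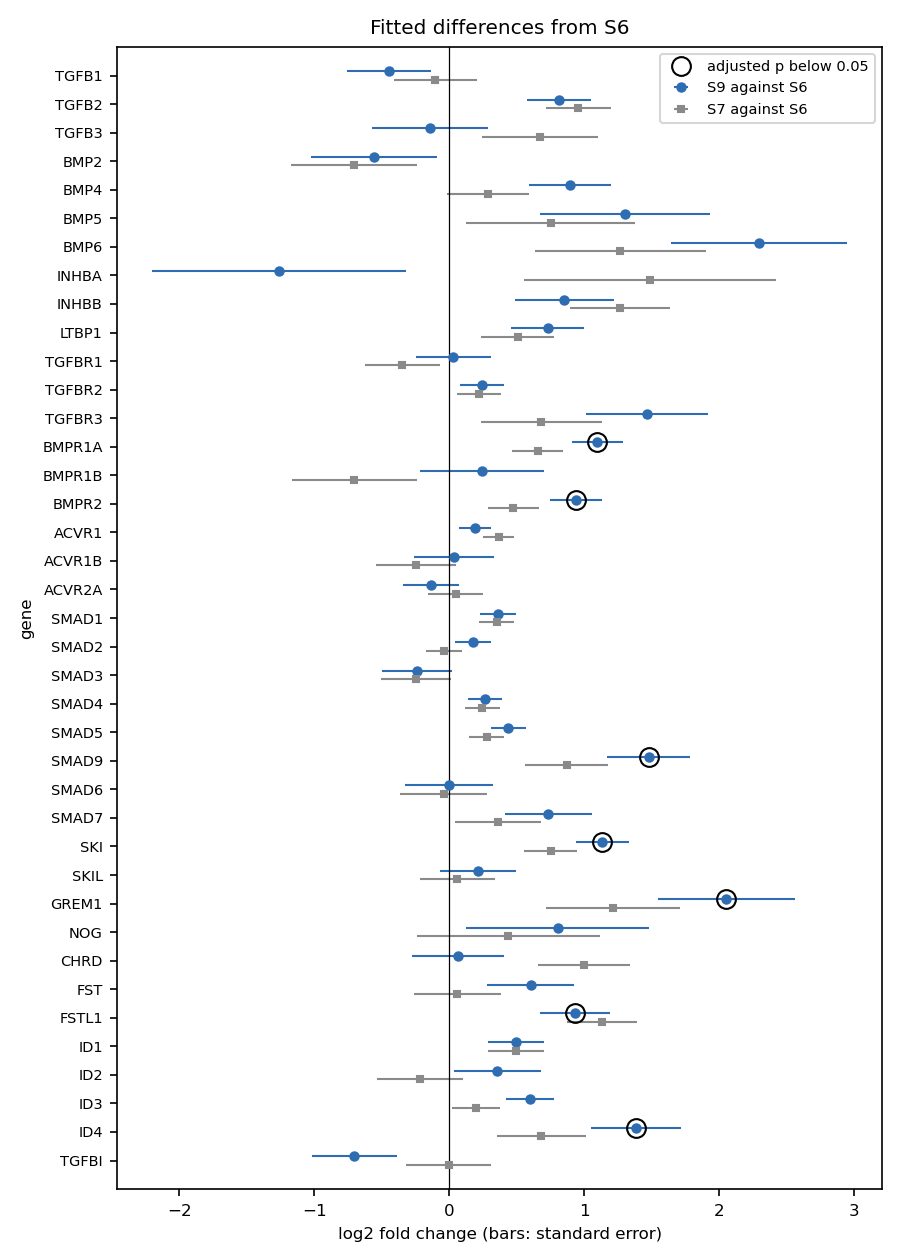
Fitted log2 fold change of each member in S9 (circles) and S7 (squares) against S6, with the standard error as bars. Black rings mark the 7 members called between S9 and S6, all to the right of 0. Both comparisons use the same S6 libraries.

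**Figure D3:**
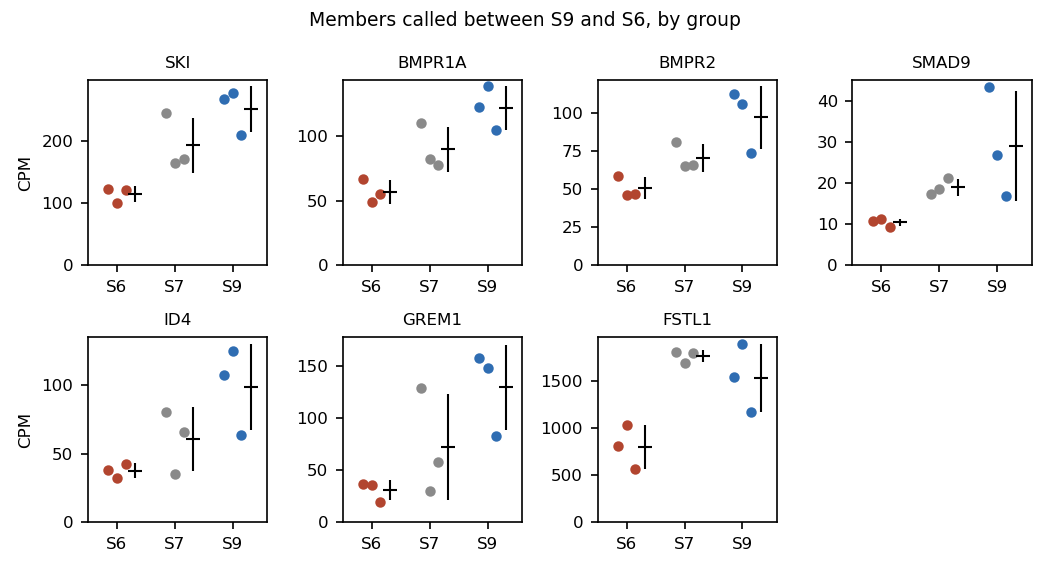
CPM of the 7 called members in each library (points, 3 per group in the order of their numbers), with mean and SD in black. All axes start at 0. The S9 points lie above all S6 points in each panel, and for FSTL1 the S7 points lie between 1697 and 1806 CPM.

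Among the ligands, none was called by edgeR between S9 and S6, where 12.4% of all genes were called. DESeq2 and limma-voom called BMP4, BMP6 and TGFB2 higher, and the BMP and TGF-beta ligands differed widely in their values. BMP6 was at 7.86, 5.78 and 3.19 CPM in S6, 24.8, 4.88 and 10.8 CPM in S7 and 31.8, 39.1 and 11.8 CPM in S9. Its S9 libraries lay above those of S6, S7_2 lay within the range of S9, and S7_3 within that of S6. The log2 fold change of S9 against S6, 2.3 (SE 0.65), was the largest of any member, and it just missed the threshold (edgeR adjusted p = 0.0522). DESeq2, limma-voom and 6 further alternatives placed it past the threshold. BMP4, the leading BMP ligand, was at 68.1, 76.6 and 74.6 CPM in S6, 124, 55.2 and 88 CPM in S7 and 161, 157 and 90.3 CPM in S9. S9_1 and S9_2 were highest, S7_3 lowest, and S9 and S6 did not overlap (log2 fold change 0.90 ± 0.31 SE, adjusted p = 0.0839 by edgeR, 0.0325 by DESeq2 and 0.0287 by limma-voom). BMP5 lay at 1.55 to 14 CPM and BMP2 at 6.15 to 31.3 CPM, with S6_2 the highest library for BMP2, and in both genes S9 and S6 overlapped. BMP7, found through its gene ID, was at 5.23, 3.69 and 4.13 CPM in S6, 11.3, 5.35 and 7.14 CPM in S7 and 6.22, 6.63 and 6.33 CPM in S9 (log2 fold change 0.55 ± 0.31 SE, adjusted p = 0.261 by edgeR).

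None of the 3 TGF-beta ligands was called by edgeR in any comparison. TGFB1, the ligand most tied to fibrosis, was at 16.7, 40.9 and 30.2 CPM in S6, 26.8, 33.8 and 21.2 CPM in S7 and 21, 24.5 and 19 CPM in S9. Groups overlapped, with S6_3 highest and S6_2 lowest, and the log2 fold change was -0.44 for S9 against S6 (SE 0.31, edgeR adjusted p = 0.367). TGFB2 was at 13.2, 10.1 and 18.3 CPM in S6, 24.6, 30.1 and 25.9 CPM in S7 and 28.9, 23.7 and 20.4 CPM in S9, and each library of S7 and S9 lay above each of S6. Neither difference was called by edgeR (log2 fold change 0.81 ± 0.24 SE, adjusted p = 0.0549 by edgeR for S9, and 0.96 with adjusted p = 0.121 for S7). DESeq2 called both, and limma-voom the one for S9 (adjusted p = 0.0489). TGFB3, the most abundant of the 3, was at 73.4, 152 and 131 CPM in S6, 97, 322 and 150.2 CPM in S7 and 94.2, 135 and 94.5 CPM in S9. One library, S7_3, stood far above the rest, and without it the S7 values lay within those of S6. LTBP1, which binds latent TGF-beta to the matrix, was at 146, 122 and 166 CPM in S6, 261, 135 and 221 CPM in S7 and 266, 279 and 174 CPM in S9, with S9 above S6 in every library but no call (log2 fold change 0.73 ± 0.27 SE, adjusted p = 0.106 by edgeR).

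Of the activin subunits, INHBA was also highest in S7_3. It was at 1.73, 8.96 and 6.0 CPM in S6, 4.77, 39.3 and 2.86 CPM in S7 and 2.25, 2.3 and 2.41 CPM in S9. S7_3 held 4.38 times the level of the next library, while the S9 libraries lay within 2.25 to 2.41 CPM. Between S9 and S7 this was the largest difference of any member, a log2 fold change of -2.75 (SE 0.98), without a call (edgeR adjusted p = 0.538). INHBB was at 6.28, 6.81 and 11.4 CPM in S6, 22.3, 25.9 and 10.7 CPM in S7 and 14, 11.8 and 18.4 CPM in S9. S9 lay above S6 throughout and S7_4 overlapped S6 (log2 fold change 0.85 ± 0.37 SE, adjusted p = 0.15 by edgeR).

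**Figure D4:**
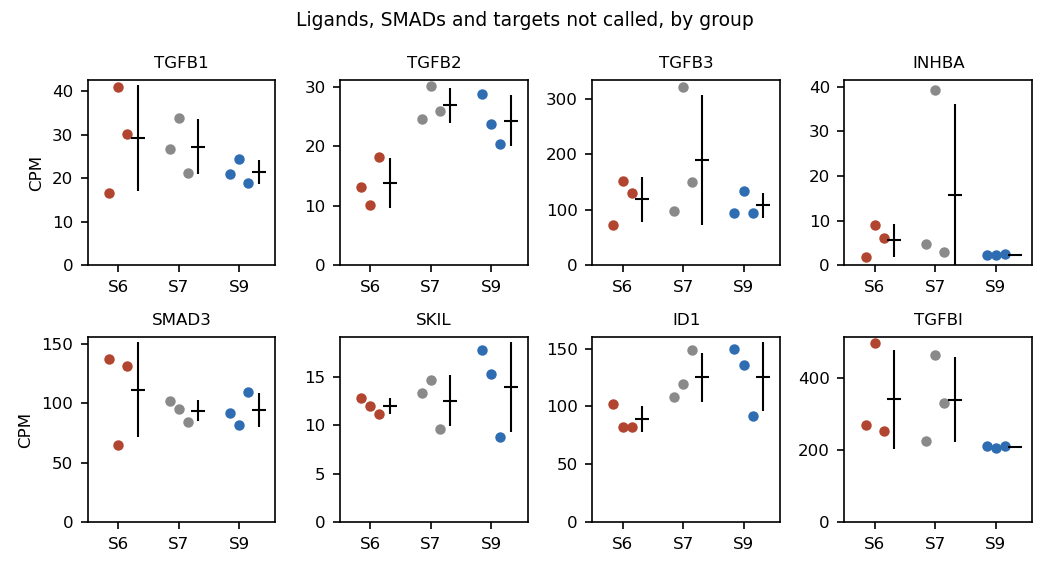
CPM of TGF-beta ligands, INHBA, SMAD3, SKIL, ID1 and TGFBI in each library (points, 3 per group in the order of their numbers), with mean and SD in black. S7_3 stands out for INHBA (39.3 CPM) and TGFB3 (322 CPM), and the S9 points of TGFBI lie between 206 and 213 CPM.

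Of the 9 receptors, 2 were called higher by edgeR in S9 than in S6, against 6.02% of all genes. Their log2 fold change was positive in 8, against 49.3% of all genes. BMPR1A, a type I BMP receptor, was at 67.1, 48.9 and 54.9 CPM in S6, 109.9, 82.2 and 77.3 CPM in S7 and 122, 139 and 105 CPM in S9 (log2 fold change 1.1 ± 0.19 SE, adjusted p = 0.0195 by edgeR). All S9 libraries but S9_4 lay above all of S7, and all S7 libraries above all of S6. BMPR2, the type II BMP receptor, was at 58.9, 46.3 and 47.2 CPM in S6, 81.1, 65 and 65.8 CPM in S7 and 113, 106 and 73.8 CPM in S9 (log2 fold change 0.94 ± 0.19 SE, adjusted p = 0.024 by edgeR). Here too S6 was the lowest group in every library, and S9_4 lay within S7. TGFBR3, the co-receptor betaglycan, was at 161, 75.3 and 78.6 CPM in S6, 262, 81.5 and 162 CPM in S7 and 332, 338 and 201 CPM in S9. S6_2 stood well above the other S6 libraries, S7_3 was level with them, and S9 lay above S6 without a call by edgeR (log2 fold change 1.47 ± 0.45 SE, adjusted p = 0.0649 by edgeR, but 0.00833 by DESeq2 and 0.0151 by limma-voom). TGFBR2 was at 132, 165 and 130.2 CPM in S6, 182, 170.2 and 147 CPM in S7 and 198, 154 and 155 CPM in S9. Its groups overlapped, with a log2 fold change of 0.25 (SE 0.16) for S9 against S6. The remaining receptors had smaller fitted differences between S9 and S6, with log2 fold changes of 0.03 for TGFBR1, the type I TGF-beta receptor, 0.04 for the activin receptor ACVR1B, -0.14 for ACVR2A, 0.19 for ACVR1 and 0.24 for BMPR1B. In S7 against S6 edgeR called no receptor and DESeq2 called BMPR1A and ACVR1 higher, and BMPR1A, BMPR2 and ACVR1 did not overlap (log2 fold change 0.37 ± 0.12 SE for ACVR1 by edgeR).

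Of the 6 signalling SMADs, SMAD9 alone was called by edgeR between S9 and S6, as higher in S9, against 6.02% of all genes. It was at 10.8, 11.2 and 9.36 CPM in S6, 17.3, 18.6 and 21.4 CPM in S7 and 43.5, 26.9 and 16.8 CPM in S9 (log2 fold change 1.48 ± 0.31 SE, adjusted p = 0.0256 by edgeR). S6 was lowest throughout, and S9_1 held the highest value, while S9_4 lay just under the S7 libraries. SMAD1 and SMAD5, the other SMADs of the BMP branch, were more abundant and differed less, with log2 fold changes of 0.36 (SE 0.13) and 0.44 (SE 0.13). Both had S9 above S6 in every library, and SMAD5 had an adjusted p of 0.0606 by edgeR, 0.0175 by DESeq2 and 0.0262 by limma-voom. SMAD1 was called by limma-voom only (adjusted p = 0.0461) among these 3 tools. The common partner SMAD4 had a log2 fold change of 0.27 (SE 0.13). SMAD3, of the TGF-beta branch, was at 137, 65.2 and 131 CPM in S6, 102, 95.2 and 84.5 CPM in S7 and 91.4, 81.8 and 109.5 CPM in S9, and S6_3 was the lowest library while the other two of S6 were the highest (log2 fold change -0.24 ± 0.26 SE, adjusted p = 0.578 by edgeR). SMAD2 lay at 59.5 to 80.1 CPM over all libraries.

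Inside the cell, the repressor SKI was called by edgeR and its relative SKIL was not. SKI, which recruits co-repressors to SMAD complexes, was at 124, 101 and 121 CPM in S6, 245, 165 and 171 CPM in S7 and 269, 279 and 211 CPM in S9. Every S7 and S9 library lay above every S6 library, and S9 exceeded S6 by 2.2 times (log2 fold change 1.14 ± 0.20 SE, adjusted p = 0.0195 by edgeR). SKI was also, with BMPR1A, 1 of the 2 members called over the 3 groups together (edgeR adjusted p = 0.0479 and 0.0480), where 2.43% of all genes were called. That count was 0 without S6_3, S6_4, S7_3, S7_4, S9_1 or S9_2, 1 without S6_2, 3 without S7_2 and 4 without S9_4. Of all genes, these fits called 0.74%, 0%, 1.55%, 0.47%, 0%, 0.05%, 3.65%, 2.63% and 3.42%, in that order. SKIL, itself a TGF-beta target, was at 12.8, 12 and 11.2 CPM in S6, 13.3, 14.7 and 9.59 CPM in S7 and 17.7, 15.3 and 8.79 CPM in S9 and overlapped in all groups. SMAD7, an inhibitory SMAD induced by TGF-beta, was at 19.3, 13.9 and 12.1 CPM in S6, 27.5, 14 and 16.6 CPM in S7 and 29.5, 28.7 and 17.2 CPM in S9. S9_1, S9_2 and S7_2 were its highest libraries, and S9_4 overlapped S6 (log2 fold change 0.74 ± 0.32 SE, adjusted p = 0.154 by edgeR, but 0.0435 by limma-voom). SMAD6, the inhibitor of the BMP branch, lay at 15.4 to 34.1 CPM, with group means of 25.2 ± 7.89 in S6 and 25.2 ± 9.35 in S9 (SD, n = 3).

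Of the 5 secreted antagonists and follistatin-type proteins, GREM1 and FSTL1 were called higher by edgeR in S9 than in S6, against 6.02% of all genes. GREM1, which captures BMP2 and BMP4, was at 37.2, 36.4 and 20.1 CPM in S6, 129, 30.5 and 57.8 CPM in S7 and 158, 148 and 83.2 CPM in S9 (log2 fold change 2.05 ± 0.51 SE, adjusted p = 0.0366 by edgeR). S9 lay above S6 in every library, and S7 was spread over both, with S7_2 inside the range of S9 and S7_3 inside that of S6. FSTL1 was at 810.4, 1036 and 569 CPM in S6, 1806, 1697 and 1799 CPM in S7 and 1542, 1899 and 1171 CPM in S9. The 3 S7 libraries were close together, and all S7 and S9 libraries exceeded all of S6. For S9 it was called (log2 fold change 0.93 ± 0.26 SE, adjusted p = 0.0486 by edgeR). For S7 the log2 fold change was larger, 1.13 (SE 0.26), but not called by edgeR (adjusted p = 0.106). DESeq2 and limma-voom did call FSTL1 for S7 (adjusted p = 0.00102 and 0.0251). FST, the activin-binding follistatin, was at 34.7, 21 and 27.6 CPM in S6, 33.1, 29.9 and 24 CPM in S7 and 26.9, 64.6 and 35 CPM in S9, with S9_2 far above the other 8 libraries (log2 fold change 0.60 ± 0.32 SE, adjusted p = 0.24 by edgeR). CHRD, the BMP antagonist chordin, was highest in S7, at 6.83, 8.27 and 4.83 CPM in S6, 11.8, 19.2 and 8.8 CPM in S7 and 6.8, 8.49 and 5.59 CPM in S9. Its S7 libraries lay above those of both other groups, with log2 fold changes of 1.0 against S6 (edgeR adjusted p = 0.191) and, for S9 against S7, -0.93 (adjusted p = 0.538). NOG had 9 to 57 counts a library, and its groups overlapped (log2 fold change 0.80 ± 0.68 SE, adjusted p = 0.459 by edgeR).

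Of the 5 target genes, ID4 was called higher by edgeR in S9 than in S6, against 6.02% of all genes. It was at 38.4, 32.1 and 42.5 CPM in S6, 80.6, 34.9 and 66 CPM in S7 and 107, 124 and 63.4 CPM in S9 (log2 fold change 1.38 ± 0.33 SE, adjusted p = 0.0344 by edgeR). S7_3 was at the S6 level, and S7_2 and S7_4 lay with S9_4. ID3, the most abundant of the family, was at 162, 146 and 128 CPM in S6, 165, 151 and 186 CPM in S7 and 246, 244 and 172 CPM in S9. S9 lay above S6 throughout, and the adjusted p of 0.0575 (edgeR) missed the threshold, while DESeq2, limma-voom, a term for the mitochondrial class, a length correction and leaving out S9_4 placed it below. ID1 was at 102, 82.6 and 82.3 CPM in S6, 108, 119 and 149 CPM in S7 and 149.9, 135 and 92.2 CPM in S9. S9_4 overlapped S6, and the log2 fold change was 0.50 in S9 and 0.49 in S7 (SE 0.21 for both). ID2 lay at 42.5 to 106 CPM and was highest in S6_3, unlike the other ID genes. ID3 took 42.3% to 48.2% of the summed FPKM of the 4 in every library, whereas ID4 took 3.70% to 6.29% in S6 and 6.61% to 9.79% in S9. TGFBI, a matrix protein named for its induction by TGF-beta, was the only member with all S9 libraries below all of S6. It was at 272, 499.9 and 254 CPM in S6, 228, 465 and 331 CPM in S7 and 213, 206 and 211 CPM in S9, very even in S9 and highest in S6_3 and S7_3, and was not called (log2 fold change -0.70 ± 0.31 SE, adjusted p = 0.166 by edgeR).

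**Figure D5:**
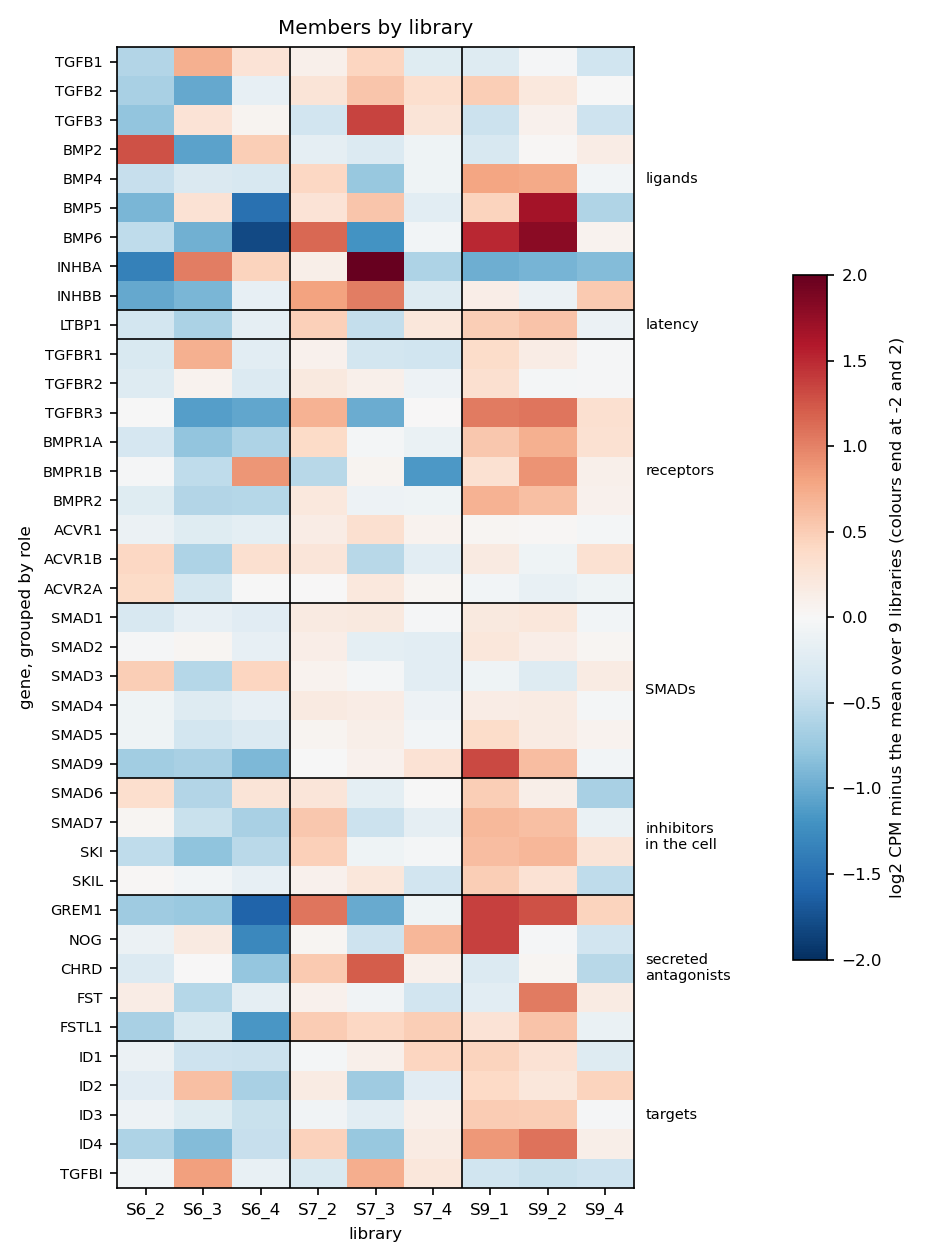
Level of each member in each library as log2 CPM minus its mean over the 9 libraries, with roles separated by lines. S6 columns are mostly blue, S9_1 and S9_2 mostly red, and S7_3 shows INHBA and TGFB3 high and GREM1 and BMP6 low.

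S7 group means lay between those of S6 and S9 for many members, as for many of all genes. Among those members the order was mostly upward. Group means ran upward from S6 through S7 to S9 in 21 of 39 members, against 27.1% of all genes, and downward in 2, TGFB1 and TGFBI, against 28.2%. Against S6, S7 gave 29 positive log2 fold changes (median 0.36, against -0.01 over all genes), and 11 members did not overlap, all higher in S7, against 10.7% of all genes higher and 10.4% lower. None was called by edgeR, where 0.111% of all genes were (0.0468% higher and 0.0643% lower), and 12 had an unadjusted p below 0.05, against 17.1% of all genes. DESeq2 called 6 (FSTL1, SKI, BMPR1A, TGFB2, INHBB and ACVR1), limma-voom called FSTL1, and limma-trend on FPKM called 0. Of all genes, DESeq2 called 8.33% (4.01% higher) and limma-voom 1.79% (0.795% higher). Within S7 the libraries differed. Of the 18 members whose S9 libraries lay above S6, S7_2 exceeded all S6 libraries in 18, S7_4 in 16 and S7_3 in 11. Over all genes with S9 wholly above S6, the shares were 85.6% for S7_2, 70.0% for S7_4 and 53.0% for S7_3, which was the S7 library with few mitochondrial reads. S7_2 also had the highest summed smooth muscle markers of S7, and S7_3 the lowest of S7 and the highest summed fibroblast markers of all libraries.

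No member was called between S9 and S7, where 0.00% of all genes were called by edgeR. Log2 fold changes were positive in 29 of 39 (median 0.21), against 50.1% of all genes. An unadjusted p below 0.05 was found for 4 members, against 9.21% of all genes, with BMPR1A and BMPR2 higher in S9 and INHBA and CHRD lower, and DESeq2 and limma-voom called 0 members (0.723% and 0.00% of all genes). The S9 libraries lay wholly below S7 in 5 members (INHBA, CHRD, TGFBI, ACVR1 and ACVR2A), against 8.81% of all genes, and wholly above in 2 (BMPR1B and ID2), against 8.36%. Within S9, S9_4 was the lowest library in 28 of 39 members, against 37.2% of all genes. It was the S9 library with few mitochondrial reads, had the lowest summed smooth muscle (6115 CPM) and endothelial markers (1042 CPM, against 1938 and 2330) of that group, and the highest epithelial ones (2769 CPM, against 1273 and 967).

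A further 66 genes of the pathway were followed, of which 65 were in the table and 61 were tested. Between S9 and S6, 16 of them were called higher and 4 lower by edgeR, against 6.02% and 6.34% of all genes (median log2 fold change 0.34), and none was called by edgeR in the other comparisons. Between S7 and S6 18 were higher and 5 lower at an unadjusted p below 0.05 (17.1% of all genes in either direction), with 16 calls by DESeq2 (8.33% of all genes) and 5 by limma-voom (1.79%). Between S9 and S7 4 were higher and 6 lower at an unadjusted p below 0.05 (9.21% of all genes), with 0 calls by either tool. The clearest was RGMA, a BMP co-receptor, at 22.2, 18.8 and 23.2 CPM in S6, 51.9, 35.1 and 34.6 CPM in S7 and 53.3, 54.5 and 56.5 CPM in S9 (log2 fold change 1.36 ± 0.18 SE, adjusted p = 0.0132 by edgeR). FSTL3, which binds activin, was at 10.3, 6.21 and 8.44 CPM in S6, 39.8, 22.2 and 21.8 CPM in S7 and 29.4, 35.1 and 41.1 CPM in S9 (log2 fold change 2.08 ± 0.30 SE, adjusted p = 0.0146 by edgeR). For both, every S7 and S9 library lay above every S6 library. TWSG1, a modulator of BMP binding, and ZEB1, a SMAD-interacting repressor, were called higher as well, with log2 fold changes of 0.80 and 1.21. So were the latent TGF-beta binding protein LTBP3 (1.21), TGFB1I1, an adaptor induced by TGF-beta (1.26), and the ligand GDF7 (1.7). JUNB, an early response gene, was called lower, at 231, 208 and 198 CPM in S6, 69.9, 124 and 104 CPM in S7 and 110.5, 68.1 and 63.4 CPM in S9 (log2 fold change -1.4 ± 0.26 SE, adjusted p = 0.0221 by edgeR). By role, 4 of 12 other antagonists, 4 of 12 genes of ligand processing and storage, 2 of 7 other ligands, 1 of 6 receptors and co-receptors, 3 of 14 SMAD partners and 2 of 10 other targets were called higher, and 2 SMAD partners and 2 targets lower. The targets CCN2 (-0.49) and KLF10 (-0.02) were not called between S9 and S6. The count of 20 called was 0 without S9_1, without S9_2 and without S6_4, S7_3 and S9_4 together, 1 without S6_4 alone, and 13 without S6_3 or S7_4. Of all genes, these fits called 0%, 0.02%, 0.04%, 0.51%, 5.85% and 6.81%, in that order.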

How the data were processed

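Counts are whole reads per gene as deposited by the authors, from fastp, HISAT2 and HTSeq per the submitters' processing notes; the sources used here give no version, build or strand setting, so overlapping genes cannot be told apart. The deposited FPKM equalled count over column total and gene length in 172953 of 172961 values above 0 (whole length within a relative tolerance of 1e-06), so both tables hold the same reads. Gene names were the table's own or, for LOC rows, from RefSeq (mOryCun1.1) by gene ID. Genes were kept by filterByExpr (minimum count 10, total 15), scaled by TMM and tested in 1 fit of all 9 libraries (edgeR 4.0.16, robust quasi-likelihood, R 4.3.3), with Benjamini-Hochberg adjustment over all 17102 genes at 0.05. A standard error is the log2 fold change over the root of F. Recovery was tested on data simulated with a smaller spread between libraries than the measured one. There 54 of 91 genes with a log2 change of 1 were recovered, and 106 of 109 with a change of 2. Alternatives used DESeq2 1.42.0 and limma 3.58.1, other scalings and filters, log2(FPKM + 1) and log2(FPKM + 0.1), and libraries left out. Members, lists and tests were chosen with earlier results of these data known. All members are described by role; libraries are listed for members called and for 12 chosen for their role, and, after values were seen, for BMP6, BMP7, TGFBR3, LTBP1, INHBA, INHBB, CHRD and ID3. Of called pathway genes, the 8 with the smallest p are named; CCN2 and KLF10 were added after values were seen.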

Additional observations from a re-analysis of the deposited data

How the results depend on the processing

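Over 22 alternatives no called log2 fold change changed sign. Of the 7 members called between S9 and S6, FSTL1 stayed called in 11, ID4 and GREM1 in 14, SMAD9 and BMPR2 in 16, and SKI and BMPR1A in 17. That count was 13 with DESeq2, 15 with limma-voom, and 0 in the 6 libraries left without S6_4, S7_3 and S9_4. Leaving out 1 library each gave 0 to 10. Of all genes, 24.2%, 23.7% and 0.04% were called in those settings, and 0% to 11.8% without 1 library. Over the 3 groups together, members called were 15 with DESeq2, 9 with limma-voom, 0 on log2(FPKM + 1), 1 on log2(FPKM + 0.1), 0 in those 6 libraries, 6 with a term for the mitochondrial class and 1 with a length correction. Leaving out 1 library each gave 0 to 4. The shares of all genes were 20.2%, 13.7%, 1.33%, 1.99%, 0%, 3.23% and 2.05%, in that order, and 0% to 3.65% without 1 library. Between S7 and S6, 6 members were called with DESeq2 and 1 with limma-voom, against 0 by edgeR. Those tools called 8.33% and 1.79% of all genes there. Of the other pathway genes, S9 against S6 gave 13 calls in the 2 groups alone (8.66% of all genes), 0 in those 6 libraries and 0 to 20 without 1 library. For them S7 against S6 gave 16 with DESeq2 and 5 with limma-voom. With a length correction 26 of 39 members had a positive log2 fold change between S9 and S6, against 31. The median was 0.55 with that correction, against 0.03 over all genes. The cause of these shifts was not tested; in the 6 libraries fewer samples enter. Deviations of same-numbered libraries correlated at r from -0.065 to 0.14 over 7 pairs, above 0.1 in 3, and those of other pairs at -0.18 to 0.10; 6 of 8 libraries correlated best with their own number. Not every pair passed 0.1 and the labels tie the numbers to nothing, so the number was not taken as a pairing. The limit of 0.1 is no test of pairing, and a pairing was not excluded. With a replicate block, 0 members were called between S9 and S6, against 0.09% of all genes, and 0 over the 3 groups, against 0.01%. Of the other pathway genes, 0 were called between S9 and S6. S9_1 was the only library numbered 1, so its block term took it up whole. With so few calls over all genes, these counts say nothing particular to the members.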
